A study of Mus musculus with 8 samples.

Results

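The Wnt pathway genes described here are 44 mouse genes taken by name from a table of read counts: 6 ligands, 2 genes of ligand secretion, 9 Frizzled receptors, 6 co-receptors or other receptors, 7 secreted inhibitors, 5 feedback inhibitors that act in the cell, 6 transducers and 3 TCF factors. All 44 were found among the 54532 genes of the table, and 38 of them had enough reads to be tested. The counts came from RNA-seq of whole retina at day 7 after birth, an age taken from the sample labels (the study's methods give another), with 4 *Mettl3*-CKO samples and 4 samples from littermate controls. *Mettl3* encodes the catalytic subunit of the complex that writes the m6A mark on RNA, and the comparison asked which transcripts differed once this gene had been deleted in the developing retina. The *Mettl3*-CKO mice were *Six3-Cre* positive with both *Mettl3* alleles floxed. *Six3-Cre* acts in retinal progenitors, and the study describes the loss of the protein in the central retina, so cells outside that domain may have kept the gene. The controls are named only as littermates, not by the alleles they carried, and whether each sample was 1 animal is not given either. The p-values therefore measure the spread between these samples.

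Wnt proteins are secreted lipid-modified ligands that need *Porcn* to receive their lipid and *Wls* to leave the cell. They bind Frizzled receptors, with *Lrp6* as co-receptor for the branch that stabilizes beta-catenin and *Ror1*, *Ror2* or *Ryk* as receptors in other branches. In the absence of ligand, *Axin1*, *Apc* and *Gsk3b* mark beta-catenin for degradation, whereas Dishevelled proteins (*Dvl1*, *Dvl2* and *Dvl3*) relay the receptor signal and let beta-catenin reach the TCF factors in the nucleus. Secreted Frizzled-related proteins, *Wif1*, *Dkk2* and *Notum* act outside the cell, and *Axin2*, *Nkd1*, *Nkd2*, *Rnf43* and *Znrf3* are induced by the pathway and restrain it. In the eye, Wnt signalling is known for its roles in the peripheral retina and ciliary margin, in progenitors, and in the growth of retinal vessels.

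Total counts lay between 16227095 and 20281517 per sample. Levels of genes are given as CPM, counts scaled to the library total (with TMM factors), while the sums of marker lists use library totals alone. By library totals alone, the detection floor of 3 counts was worth 0.148 to 0.185 CPM. Genes were tested with edgeR's quasi-likelihood test, and a gene was called when its Benjamini-Hochberg adjusted p over the 17998 genes tested was under 0.05. The targeted gene itself had 24.0 ± 3.97 CPM (SD, n = 4) in *Mettl3*-CKO and 31.1 ± 2.26 CPM (SD, n = 4) in control retinas, a log2 fold change of -0.38 (standard error, SE, 0.12, adjusted p = 0.0602) with overlapping groups. Its count covers the whole gene, including exons outside any deleted segment, and its range overlaps that of *Tox4*. Genes that mark retinal neurons and glia were measured in every sample, and none of the listed markers of any cell type was at 0 in all samples. The retinal progenitor markers were higher in sum in every *Mettl3*-CKO sample (3791 to 5068 CPM) than in any control (2706 to 3679 CPM), with 4 of 10 called higher, and the rod markers were lower (1465 to 2748 against 2852 to 4210 CPM), with 5 of 8 called lower. Control replicate 4 stood apart by its lens transcripts, at 3252 CPM in sum against 9.0 to 72.1 CPM in the other controls. Control replicate 1 had the highest control sums for astrocyte (208.0 against 94.8 to 120.0 CPM), microglia (147.1 against 50.9 to 78.3 CPM) and rod markers (4210 against 2852 to 3288 CPM). It had the lowest for progenitor (2706 against 3422 to 3679 CPM) and ciliary margin markers (78.1 against 119.5 to 133.6 CPM). The part of these differences in the pathway values of that sample was not tested.

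Per gene length, the transducers *Apc* and *Gsk3b* were the most abundant of these transcripts in controls, followed by the receptor *Lgr4*. In FPKM, which is CPM per kilobase of gene length, the control means were 34.3 ± 0.560 for *Apc*, 34.2 ± 4.94 for *Gsk3b*, 25.3 ± 3.86 for *Lgr4* and 24.1 ± 0.436 for *Dvl1* (SD, n = 4 each). Among the other receptors, *Fzd5* followed at 19.3 ± 4.97, *Ryk* at 16.6 ± 0.878, *Fzd3* at 10.5 ± 0.482, *Lrp6* at 9.31 ± 0.890 and *Fzd2* at 7.47 ± 0.976 FPKM. The ligands were much less abundant: *Wnt5b* reached 5.22 ± 0.365 FPKM, while *Wnt7b* (1.40 ± 0.209), *Wnt2b* (1.37 ± 0.254) and *Wnt5a* (1.10 ± 0.278) stood near 1 FPKM. Of the 44 genes, 10 exceeded 10 FPKM and 32 exceeded 1 FPKM in controls. Neighbours in this order mostly could not be told apart, since the ranges over the 4 controls overlapped in 41 of 43 neighbouring pairs. The exceptions were the step from *Porcn* down to *Fzd3* and that from *Wnt5b* down to *Axin2*.

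**Figure D1:**
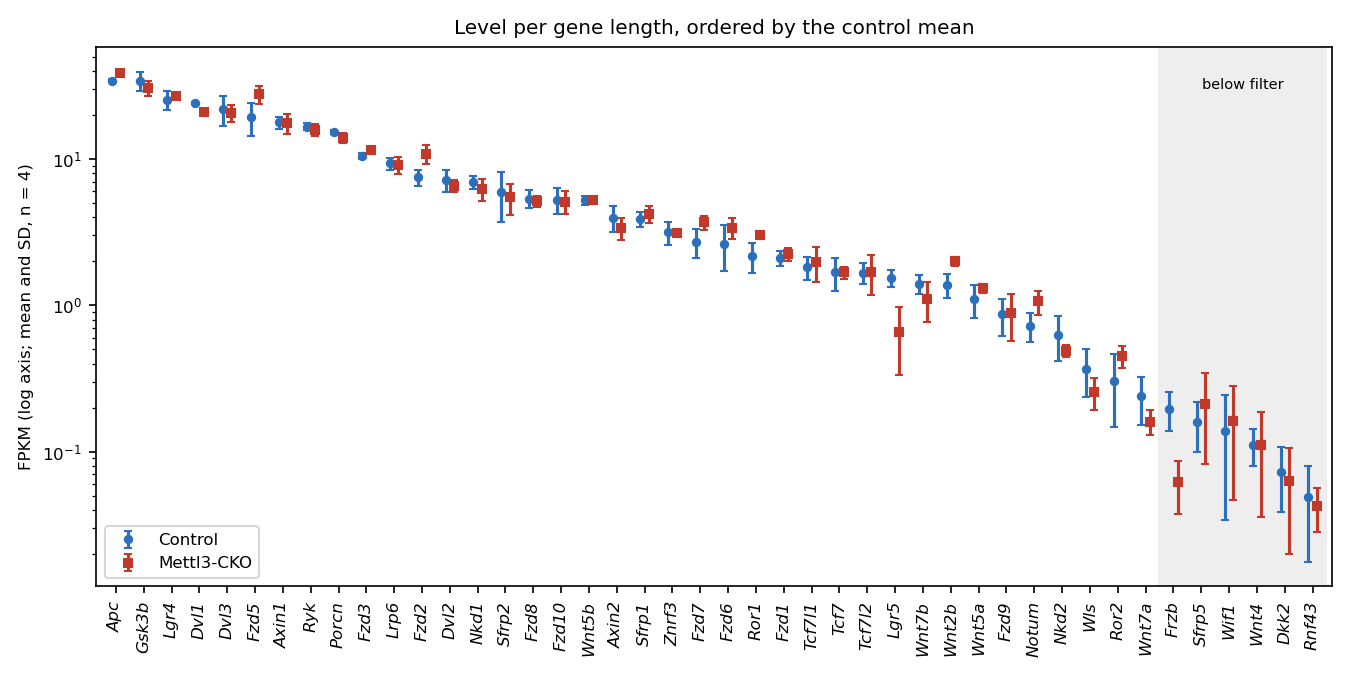
Level of the 44 Wnt pathway genes in FPKM on a log axis, ordered by the control mean, with control means as circles and *Mettl3*-CKO means as squares (bars, SD, n = 4). The levels run from 34.3 FPKM for *Apc* to 0.0490 FPKM for *Rnf43* in controls, and the shaded genes on the right were too low to be tested.

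Of the 38 genes tested, 2 were called higher in *Mettl3*-CKO retinas (*Wnt2b* and *Fzd2*) and 1 was called lower (*Lgr5*). That is 7.89% of the pathway genes tested, against 10.5% of all genes tested. By direction, 5.26% were called higher against a background of 6.49%, and 2.63% were called lower against a background of 4.05%. The median log2 fold change of the 38 genes was -0.01, as was that of all genes tested, with 17 positive and 21 negative values. All but *Lgr5*, 37 of 38, had a log2 fold change between -0.6 and 0.6. The *Mettl3*-CKO and control samples did not overlap for 9 of the 38 genes (23.7%), which compares with 17.3% of all genes tested. Those 9 were *Wnt2b*, *Fzd2*, *Fzd3*, *Fzd5*, *Ror1*, *Apc* and *Notum* with the *Mettl3*-CKO samples above, and *Lgr5* and *Dvl1* with the *Mettl3*-CKO samples below. These shares describe only the genes that passed the filter on low counts.

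**Figure D2:**
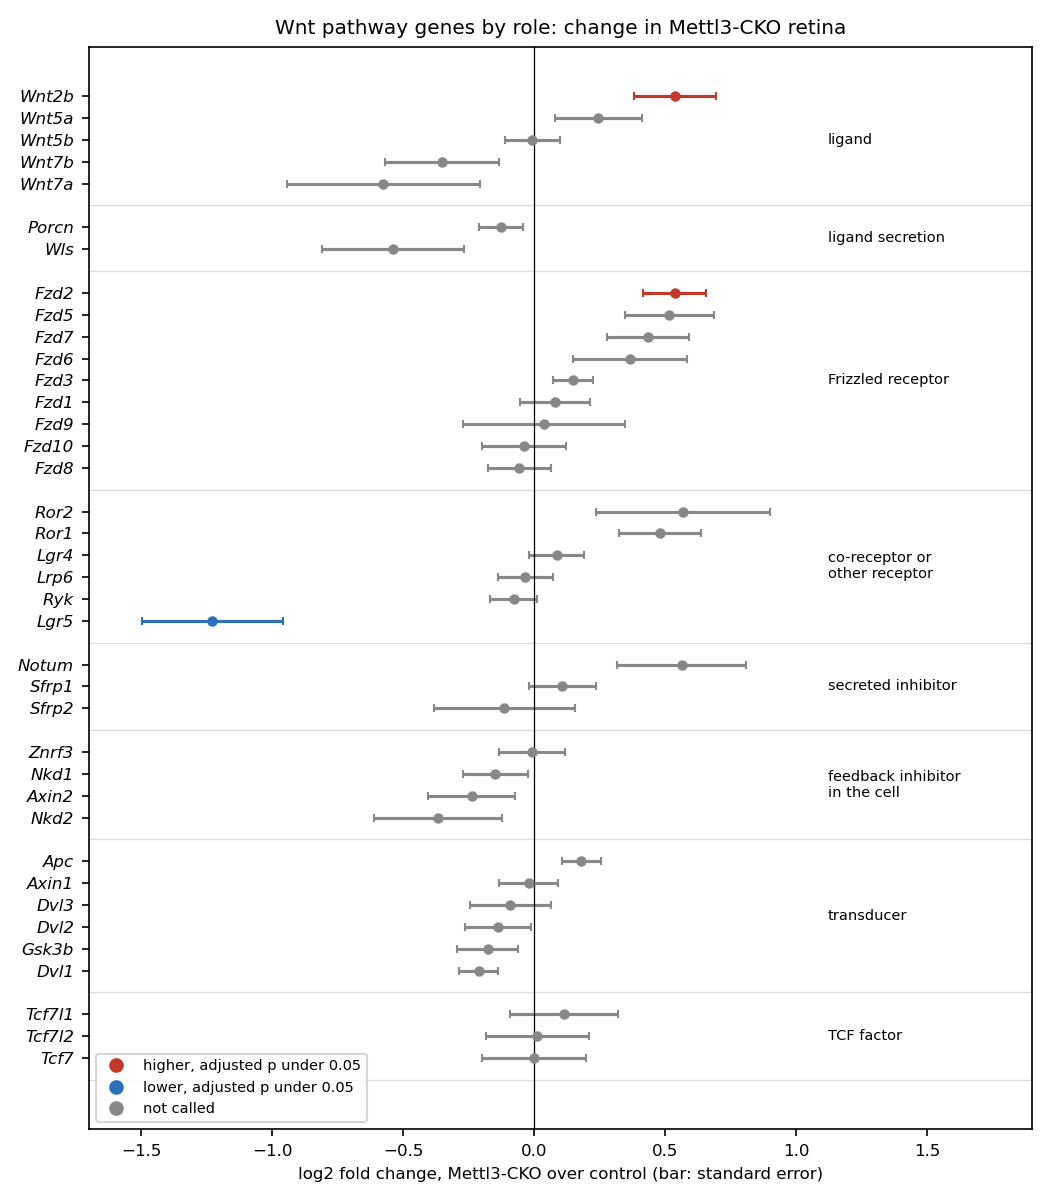
Log2 fold change (*Mettl3*-CKO over control) of the 38 Wnt pathway genes tested, grouped by role, with bars for the SE. *Wnt2b* (0.54) and *Fzd2* (0.54) are coloured as called higher and *Lgr5* (-1.23) as called lower, and most of the other genes lie close to 0.

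Among the ligands, *Wnt2b* rose and the other 4 tested did not pass the threshold. *Wnt2b*, a ligand of the beta-catenin branch known from the peripheral eye, occupies bases 104945272 to 104961921 of chromosome 3 (GRCm38, minus strand). With samples in the order of replicates 1 to 4, here and in what follows, it had 8.61, 8.28, 7.58 and 9.07 CPM across the *Mettl3*-CKO samples and 4.59, 6.11, 7.07 and 5.29 CPM across the controls. Every *Mettl3*-CKO sample was above every control, although replicate 3 of both groups came close to each other. The means of 8.39 ± 0.626 and 5.77 ± 1.07 CPM (SD, n = 4) gave a log2 fold change of 0.54 (SE 0.16, adjusted p = 0.0456), which is a 1.45-fold difference. The call was a narrow one: it was kept in only 1 of the 8 fits that each left out a sample, that without control replicate 3, and without control replicates 1 and 4 the log2 fold change was 0.34 (adjusted p = 0.207). With the replicate number as a block, the adjusted p was 0.0651.

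*Wnt2b* shares its range with *Gm43846*, a gene on the same strand with 1 to 11 counts per sample, against at least 86 for *Wnt2b*. Markers of the ciliary margin and ciliary body, where *Wnt2b* is known to be expressed, summed to 131.5 to 160.1 CPM in *Mettl3*-CKO and 78.1 to 133.6 CPM in control retinas, with 1 of 7 tested called higher. Most of this sum came from *Zic2* (means of 62.45 CPM in *Mettl3*-CKO and 47.44 CPM in controls) and *Zic1* (48.03 and 37.09 CPM). Neither was called. The called gene, *Wfdc1*, was far less abundant than *Zic1* or *Zic2*. *Otx1* (-0.85) and *Aqp1* (-0.32) had negative log2 fold changes, and the median of the 7 tested was 0.11. The pigment epithelium, another known source, had marker sums of 74.9 to 99.7 CPM in *Mettl3*-CKO and 99.4 to 133.5 CPM in controls, with 4 of 9 tested called lower and 1 called higher. Whether either tissue had a part in the *Wnt2b* difference was not tested. In whole tissue, a change in the number of cells that make a transcript and a change of its amount per cell cannot be told apart.

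*Wnt5b*, a ligand of the branches that do not use beta-catenin, was the most abundant ligand per length and supplied 52.7% ± 2.81 of the summed ligand FPKM in *Mettl3*-CKO and 55.5% ± 2.64 in control retinas (SD, n = 4). It was almost level between the groups, at 13.2 to 14.1 CPM in *Mettl3*-CKO and 13.1 to 15.2 CPM in controls (log2 fold change -0.01, SE 0.11). *Wnt5a*, of the same branch, had 9.22 to 10.9 CPM in *Mettl3*-CKO and 6.89 to 11.8 CPM in controls (log2 fold change 0.24, adjusted p = 0.409). For *Wnt7a* and *Wnt7b*, a related pair that activates beta-catenin signalling in vessels of the nervous system, the log2 fold changes were -0.58 (SE 0.37) and -0.35 (SE 0.22), with adjusted p of 0.374 and 0.351. *Wnt7b* spread most in the *Mettl3*-CKO samples, from 3.32 CPM in replicate 4 to 7.12 CPM in replicate 2. *Wnt4*, which acts in several branches, was too low to be tested, with 4 to 16 counts per *Mettl3*-CKO sample and 5 to 10 per control. The 6 ligands summed to 9.87 ± 0.270 FPKM in *Mettl3*-CKO and 9.44 ± 1.03 FPKM in control retinas, and the groups overlapped.

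The 2 genes that ligand-producing cells need were both below the controls on average and neither was called (0 at an unadjusted p under 0.05 in edgeR, and 0 called by DESeq2 or limma voom). *Porcn*, the acyltransferase of Wnt ligands, had 39.1 to 45.8 CPM in *Mettl3*-CKO and 44.5 to 47.3 CPM in controls, a log2 fold change of -0.13 (SE 0.08, adjusted p = 0.395). *Wls*, the transport receptor that carries them to the surface, had 1.66 to 2.95 CPM in *Mettl3*-CKO and 2.47 to 4.97 CPM in controls, a log2 fold change of -0.54 (SE 0.27, adjusted p = 0.245). The highest *Wls* value belonged to control replicate 1, and the 3 other controls fell within the *Mettl3*-CKO range.

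Of the 9 Frizzled receptors, *Fzd2* was called higher, and 7 had positive log2 fold changes, with a median of 0.15 against -0.01 over all genes tested. *Fzd2*, a receptor for ligands of both kinds of branch, occupies bases 102604396 to 102608058 of chromosome 11 (GRCm38, plus strand), and no other gene of the table shares its range. It had 48.1, 38.2, 35.7 and 36.8 CPM across the *Mettl3*-CKO samples and 25.1, 23.6, 29.8 and 30.9 CPM across the controls. The groups did not overlap, and *Mettl3*-CKO replicate 1 was the highest of all samples. Its means of 39.7 ± 5.70 and 27.4 ± 3.57 CPM (SD, n = 4) gave a log2 fold change of 0.54 (SE 0.12, adjusted p = 0.0160), a 1.45-fold difference. The call was lost without *Mettl3*-CKO replicate 1 (log2 fold change 0.44, adjusted p = 0.0606) and without control replicate 2 (0.47, adjusted p = 0.0568), and was kept in the 6 other fits that left out a sample.

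*Fzd5*, the Frizzled receptor best known from retinal progenitors, was the most abundant Frizzled per length. Its level was 206.4, 220.1, 166.9 and 169.3 CPM across the *Mettl3*-CKO samples and 84.8, 134.7, 149.9 and 163.7 CPM across the controls. The groups did not overlap, but control replicate 4 came close to the lowest *Mettl3*-CKO sample and control replicate 1 lay far below the other controls. The log2 fold change of 0.52 (SE 0.17) missed the threshold (adjusted p = 0.0724) and passed it without control replicate 1, where it was smaller but more even (0.35, adjusted p = 0.0277). *Fzd7*, a receptor of stem and progenitor cells, had 14.7 to 18.5 CPM in *Mettl3*-CKO and 9.14 to 15.9 CPM in controls (log2 fold change 0.44, SE 0.16, adjusted p = 0.101), and was called without control replicate 3 (adjusted p = 0.0404). *Fzd3*, known for axon guidance, had the smallest SE of the family: 143.5 to 157.3 CPM against 124.7 to 138.3 CPM, without overlap, for a log2 fold change of 0.15 (SE 0.08, adjusted p = 0.255). *Fzd6* was 0.37 (SE 0.22) on the log2 scale, with control replicate 2 at 7.27 CPM far below the other samples, and *Fzd1*, *Fzd8*, *Fzd9* and *Fzd10* lay between -0.06 and 0.08.

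Summed per length, the 9 Frizzled receptors had 76.0, 72.7, 66.3 and 66.9 FPKM across the *Mettl3*-CKO samples and 48.4, 54.1, 61.4 and 60.6 FPKM across the controls. Every *Mettl3*-CKO sum was above every control sum, with means of 70.5 ± 4.68 and 56.1 ± 6.08 FPKM (SD, n = 4). *Fzd5* alone made up 39.0% ± 3.46 of the sum in *Mettl3*-CKO and 33.9% ± 5.96 in control retinas. The progenitor markers summed to 4879, 5068, 4339 and 3791 CPM across the *Mettl3*-CKO samples and 2706, 3679, 3482 and 3422 CPM across the controls. Control replicate 1 was the lowest of all samples in both sums, whereas control replicate 2 had the highest progenitor sum of the controls and a lower Frizzled sum than control replicates 3 and 4. The part of the progenitor markers in the Frizzled values was not tested.

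**Figure D3:**
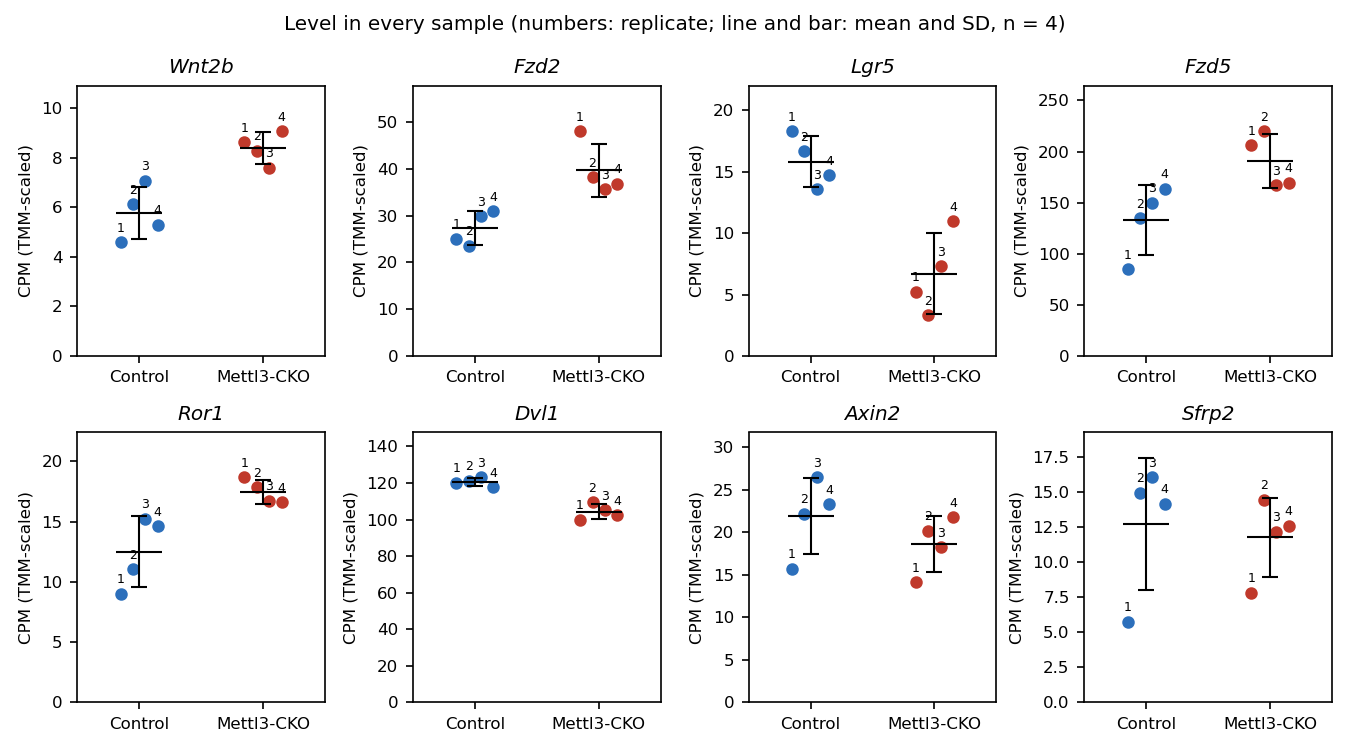
Level in each sample, in TMM-scaled CPM on linear axes from 0, of the 3 called genes and 5 others that the text describes by sample, with replicate numbers beside the points and bars for the mean and SD (n = 4). For *Wnt2b*, *Fzd2*, *Fzd5* and *Ror1* all *Mettl3*-CKO points lie above the controls and for *Lgr5* and *Dvl1* below them, whereas the *Axin2* and *Sfrp2* points of the groups mix.

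The co-receptors and other receptors went in different directions. *Lgr5* was the only one called lower. It encodes a receptor for R-spondins, secreted proteins that strengthen Wnt signals, and is best known as a marker of stem cells in the gut, while in the retina it is known from a class of amacrine cells. The gene occupies bases 115450311 to 115587780 of chromosome 10 (GRCm38, minus strand). The level was 5.24, 3.30, 7.32 and 11.0 CPM across the *Mettl3*-CKO samples and 18.3, 16.7, 13.6 and 14.7 CPM across the controls. All *Mettl3*-CKO samples were below all controls, and they spread widely, with replicate 4 far above replicate 2. Means of 6.71 ± 3.28 and 15.8 ± 2.11 CPM (SD, n = 4) gave a log2 fold change of -1.23 (SE 0.27, adjusted p = 0.0136), or 0.427 of the control level.

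Of the fits that left out a sample, 7 of 8 kept the *Lgr5* call, and the one without *Mettl3*-CKO replicate 1 lost it (log2 fold change -1.12, adjusted p = 0.0699). On the opposite strand, *A930009A15Rik* shares part of the range, with 9 to 30 counts per sample against 57 to 343 for *Lgr5* (log2 fold change -0.57, adjusted p = 0.375). Whether strand was used in counting is not given, so reads of the pair cannot be told apart. The amacrine markers as a list had about the same sum in both groups (1354 to 1753 CPM in *Mettl3*-CKO, 1249 to 1694 CPM in controls). The most abundant of them was *Pax6*, which is also on the progenitor list, with means of 734.1 CPM in *Mettl3*-CKO and 658.2 CPM in controls. The median log2 fold change of the 8 markers was -0.10. One of the 8 was called, *Slc6a9*, the glycine transporter of glycinergic amacrine cells, which had 42.2 to 58.9 CPM in *Mettl3*-CKO and 77.4 to 91.1 CPM in controls (log2 fold change -0.80, SE 0.11, adjusted p = 0.00104). The part of these cells in the *Lgr5* values was not tested.

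*Lgr4*, the close relative of *Lgr5*, was far more abundant per length in controls (25.3 against 1.54 FPKM) and did not pass the test, at 151.0 to 165.1 CPM in *Mettl3*-CKO and 119.2 to 172.6 CPM in controls (log2 fold change 0.09, SE 0.11, adjusted p = 0.677). *Ror1*, a receptor for *Wnt5a*, had 18.7, 17.8, 16.7 and 16.6 CPM across the *Mettl3*-CKO samples and 9.03, 11.1, 15.2 and 14.6 CPM across the controls. The groups did not overlap, with controls 1 and 2 well below and controls 3 and 4 close to the *Mettl3*-CKO samples, and the log2 fold change of 0.48 (SE 0.16) had an adjusted p of 0.0679 (0.0493 without control replicate 3). *Ror2*, its relative, had 1.43 to 2.15 CPM in *Mettl3*-CKO and 0.801 to 2.29 CPM in controls (log2 fold change 0.57, SE 0.33, adjusted p = 0.322). *Lrp6* and *Ryk* were near level, with log2 fold changes of -0.03 (SE 0.11) and -0.08 (SE 0.09).

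The secreted inhibitors were mostly scarce, and none was called in the 3 that could be tested (1 had an unadjusted p under 0.05 in edgeR, and DESeq2 and limma voom called 0). *Notum*, an enzyme that removes the lipid of Wnt ligands, had 2.15, 2.32, 3.24 and 2.54 CPM across the *Mettl3*-CKO samples and 1.18, 2.08, 1.88 and 1.80 CPM across the controls. Its groups did not overlap, yet control replicate 2 and *Mettl3*-CKO replicate 1 were close, and the log2 fold change of 0.56 (SE 0.24) had an adjusted p of 0.175. *Sfrp1* and *Sfrp2*, which bind ligands outside the cell, had log2 fold changes of 0.11 (SE 0.13) and -0.11 (SE 0.27). *Sfrp2* was uneven in both groups, at 5.77 CPM in control replicate 1 and 7.84 CPM in *Mettl3*-CKO replicate 1 against 12.2 to 16.1 CPM in the 6 other samples.

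The remaining 4 secreted inhibitors stayed below the filter on low counts. *Frzb*, a secreted Frizzled-related protein, had 3, 3, 6 and 3 counts across the *Mettl3*-CKO samples and 15, 13, 9 and 8 counts across the controls. No *Mettl3*-CKO sample reached the lowest control, and the sums were 15 and 45 counts. In the fit without a filter its log2 fold change was -1.63 (SE 0.57, adjusted p = 0.0780), so it was not called there either. *Sfrp5* had 3 to 13 counts per sample over both groups, *Wif1* 1 to 14 and *Dkk2* 2 to 8, with overlapping groups, and a difference in them would be hard to detect at this depth.

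The feedback inhibitors in the cell stand near a readout of the pathway, since *Axin2*, *Nkd1*, *Nkd2*, *Rnf43* and *Znrf3* are known targets of beta-catenin and TCF. Members of other groups, such as *Notum* (0.56) and *Lgr5* (-1.23), were not sorted by whether they are targets too. The 4 feedback inhibitors tested had negative log2 fold changes (median -0.19), as had 9320 of all 17998 genes tested. None of the 4 was called (0 at an unadjusted p under 0.05 in edgeR, and 0 called by DESeq2 or limma voom). *Axin2*, the most widely used of these targets, had 14.1, 20.2, 18.2 and 21.8 CPM across the *Mettl3*-CKO samples and 15.7, 22.2, 26.4 and 23.3 CPM across the controls. The groups mixed, with replicate 1 the lowest of each, for a log2 fold change of -0.24 (SE 0.17, adjusted p = 0.422). The size rested on single samples: it was -0.37 without control replicate 1 (adjusted p = 0.0675), -0.13 without control replicate 3 (adjusted p = 0.728) and -0.12 without *Mettl3*-CKO replicate 1 (adjusted p = 0.767), and none of the 8 fits that left out a sample called it. *Nkd1*, which binds Dishevelled, had 24.0 to 35.1 CPM in *Mettl3*-CKO and 27.8 to 34.5 CPM in controls (log2 fold change -0.15, SE 0.13). *Nkd2* was at -0.37 (SE 0.24), where control replicate 1 with 4.49 CPM was far above the range of 2.08 to 2.83 CPM in all 7 other samples. *Znrf3*, a ligase that removes Frizzled from the surface, was level (log2 fold change -0.01, SE 0.13), and its sign changed in 5 of the other fits. Its relative *Rnf43* had 2 to 11 counts per sample and was not tested.

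TCF factors bind promoters and enhancers of such targets at a short motif. RefSeq promoter windows on GRCm38.p6, from 250 bases before to 50 bases after a start site, were matched for 30 of the 44 genes (35 windows). The letters CTTTG followed by A or T at each of the next 2 positions, on either strand, occurred in 3 of these 35 windows (8.57%) and in 5544 of the 32851 windows of all genes (16.9%). The windows of the pathway genes were richer in G and C, with a median of 64.7% against 52.7% over all windows, and the part of base composition in the motif shares was not tested. The windows with a match belonged to *Fzd7*, *Tcf7l2* and *Wnt5b*. Shown are the 250 bases before the start sites of *Axin2*, as the pathway's standard target, and of *Fzd7*, as the Frizzled receptor with a match. The sequences run 5′ to 3′ and capitals mark the motif, here on the reverse strand of *Fzd7*.
*Axin2* promoter, chr11:108920099-108920348, plus strand: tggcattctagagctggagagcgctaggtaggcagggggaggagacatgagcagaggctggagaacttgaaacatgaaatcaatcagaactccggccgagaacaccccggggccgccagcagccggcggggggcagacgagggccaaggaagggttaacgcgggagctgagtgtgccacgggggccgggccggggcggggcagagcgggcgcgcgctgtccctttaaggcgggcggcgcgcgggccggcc
*Fzd7* promoter, chr1:59481897-59482146, plus strand: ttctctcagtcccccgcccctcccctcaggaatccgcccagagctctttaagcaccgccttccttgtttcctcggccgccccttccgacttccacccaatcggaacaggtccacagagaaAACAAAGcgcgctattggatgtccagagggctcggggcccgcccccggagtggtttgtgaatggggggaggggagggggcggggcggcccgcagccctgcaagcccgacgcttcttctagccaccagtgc
The *Axin2* stretch holds no match, which says only that these letters are not in this window. Promoters of *Apc*, *Axin1*, *Fzd2*, *Fzd3*, *Fzd6*, *Fzd8*, *Lgr5*, *Lrp6*, *Notum*, *Porcn*, *Sfrp1*, *Wnt5a*, *Wnt7b* and *Znrf3* were not used here.

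Among the transducers, none of 6 was called, with 2 at an unadjusted p under 0.05, while DESeq2 called *Apc* higher and *Dvl1* lower and limma voom called *Gsk3b* lower in addition. *Dvl1*, a Dishevelled protein, had 99.9, 109.5, 105.2 and 102.3 CPM across the *Mettl3*-CKO samples and 120.2, 121.3, 123.0 and 117.8 CPM across the controls. The groups lay apart with little spread in either, and the log2 fold change was -0.21 (SE 0.07, adjusted p = 0.0907). *Apc*, a scaffold of the destruction complex, was likewise tight, at 600.0, 613.0, 614.4 and 623.9 CPM across the *Mettl3*-CKO samples and 537.9, 546.5, 548.3 and 529.1 CPM across the controls. Again no samples of the groups overlapped, for a log2 fold change of 0.18 (SE 0.07, adjusted p = 0.145). *Gsk3b*, the kinase of that complex, had 273.0 to 349.6 CPM against 268.9 to 382.0 CPM (log2 fold change -0.18, adjusted p = 0.389), and it was at -0.27 without control replicate 1 (adjusted p = 0.0486) but at -0.11 without control replicate 3 (adjusted p = 0.676). *Axin1*, *Dvl2* and *Dvl3* had log2 fold changes of -0.02, -0.14 and -0.09. The 6 transducers together had 134.6 ± 9.50 FPKM in *Mettl3*-CKO and 139.4 ± 12.1 FPKM in control retinas.

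The TCF factors were level between the groups. *Tcf7* had 4.11 to 5.02 CPM in *Mettl3*-CKO and 3.42 to 5.55 CPM in controls, with group means that were equal to 3 digits, 4.41 CPM in both. *Tcf7l1* and *Tcf7l2* had log2 fold changes of 0.11 (SE 0.21) and 0.01 (SE 0.20). In both, *Mettl3*-CKO replicate 2 was the highest of all 8 samples and *Mettl3*-CKO replicate 4 the lowest, at 10.2 and 5.32 CPM for *Tcf7l1* and 20.8 and 10.7 CPM for *Tcf7l2*. No TCF factor was called by edgeR (0 at an unadjusted p under 0.05), DESeq2 or limma voom.

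**Figure D4:**
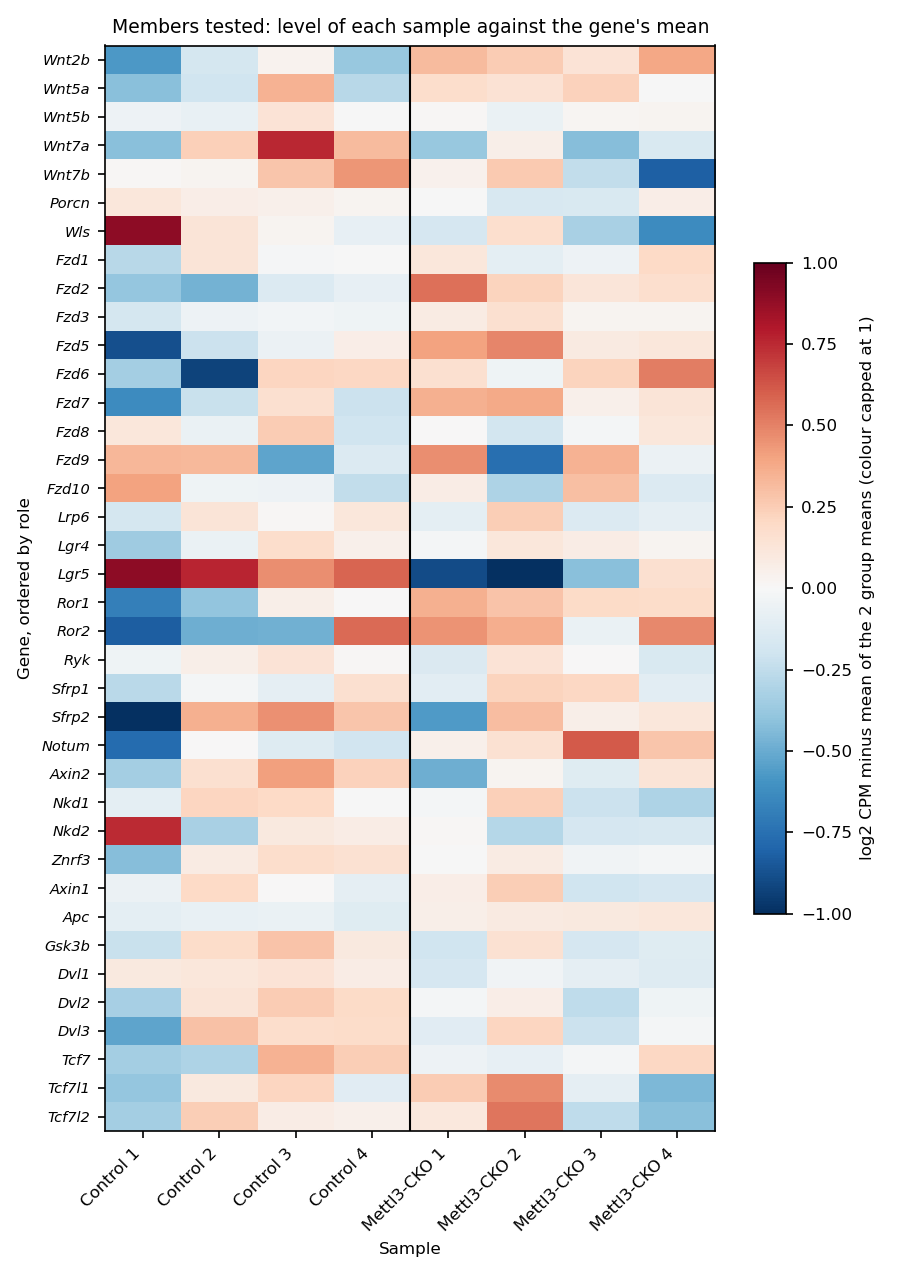
Level of each sample against the gene's mean of both groups, on the log2 CPM scale, for the 38 genes tested, ordered by role, with controls on the left and *Mettl3*-CKO samples on the right of the line (red, above the mean, and blue, below it, capped at 1). Control replicate 1 is the lowest control for 25 of the 38 genes, and *Lgr5* shows the strongest contrast between the groups.

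Samples differed from each other across the pathway as well as between groups. Control replicate 1 was the lowest control for 25 of the 38 genes tested and the highest for 6, whereas control replicate 3 was the highest for 20. Among *Mettl3*-CKO samples, replicate 2 was the highest for 20. The coefficient of variation had a median of 17.5% over the genes in controls and 13.0% in *Mettl3*-CKO retinas, and was larger in the controls for 25 of 38.

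METTL3 acts at sites with the core letters GGACT, written in DNA letters, among others. In the longest coding transcript of each gene (GENCODE vM21, GRCm38), 28 of the 38 pathway genes tested held this motif in the coding sequence (73.7%), against 77.6% of 14274 tested genes with a coding transcript. Its density had a median of 0.857 per kilobase over the pathway genes and 1.08 over all, with a range of 0 to 3.5, the top value being that of *Wnt5a*. *Wnt2b* held 2 sites, *Lgr5* 2, *Axin2* 4 and *Fzd2* and *Fzd5* 0. The site nearest the stop codon of the called genes that hold one is shown with its surroundings (5′ to 3′, motif in capitals).
*Wnt2b*, exon 4, chr3:104951049-104951089, minus strand, 282 bases before the stop codon: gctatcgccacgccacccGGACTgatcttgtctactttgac
*Lgr5*, exon 6, chr10:115475174-115475214, minus strand, 2023 bases before the stop codon: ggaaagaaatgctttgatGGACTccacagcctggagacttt
Of the called genes, one rose and one fell with sites of this kind and *Fzd2* rose without one in its coding sequence. Untranslated regions were not searched, so a gene with 0 sites here may hold the motif outside its coding sequence. The study reports retinal m6A peaks mostly in coding sequence, with enrichment near the stop codon. A match is a stretch of letters only, and whether these sites carry m6A in the retina was not analysed here.

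For the rest of the pathway, 91 further genes were taken from a list of ligands, R-spondins, receptors, inhibitors, transducers, nuclear cofactors and planar cell polarity genes. Of these, 75 were tested, 7 were called higher and 3 lower (13.3% against 10.5% of all genes), and their median log2 fold change was -0.04. The groups did not overlap for 13 of them (17.3%, the same share as over all genes tested). The largest rise was that of *Bcl9l*, a nuclear cofactor that ties beta-catenin to Pygopus proteins, with 175.7, 141.0, 107.3 and 104.9 CPM across the *Mettl3*-CKO samples and 48.2, 65.8, 52.5 and 48.7 CPM across the controls. The lowest *Mettl3*-CKO sample was thus well above the highest control, for a log2 fold change of 1.30 (SE 0.16, adjusted p = 0.000706). *Pygo1*, one of those Pygopus proteins, rose by 0.58 on the log2 scale (SE 0.09, adjusted p = 0.00234). Both calls held in all 8 fits that left out a sample.

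Other members of this set that rose were *Amer1*, a membrane scaffold for *Apc* (log2 fold change 0.52, adjusted p = 0.00563), *Gpc3*, a glypican that binds Wnt ligands (0.59, adjusted p = 0.0106), and *Rnf146*, a ligase that marks axin for degradation (0.42, adjusted p = 0.0160). *Vangl1* and *Vangl2*, the core pair of planar cell polarity, rose together (0.58, adjusted p = 0.0138, and 0.47, adjusted p = 0.0230). Those that fell were *Lrp4*, which binds secreted inhibitors (-0.75, adjusted p = 0.0182, with overlapping groups), *Gpc4*, another glypican (-0.42, adjusted p = 0.0268), and *Daam2*, a formin of the polarity branch (-0.54, adjusted p = 0.0306). Calls for *Lrp4*, *Gpc4* and *Daam2* held in 4, 3 and 2 of the 8 fits that left out a sample, that for *Vangl2* in 5, that for *Rnf146* in 7 (lost without *Mettl3*-CKO replicate 1), and those for *Gpc3*, *Amer1* and *Vangl1* in all 8. Without control replicates 1 and 4 together, *Rnf146*, *Vangl1*, *Gpc4* and *Daam2* were not called. *Ctnnb1*, which encodes beta-catenin, was level, at 686.4 to 766.5 CPM in *Mettl3*-CKO and 624.8 to 798.2 CPM in controls (log2 fold change 0.05, SE 0.09, adjusted p = 0.791). The fourth TCF factor, *Lef1*, had 1.22 to 1.79 CPM against 0.782 to 1.71 CPM (log2 fold change 0.24, SE 0.30). *Fzd4*, *Lrp5* and *Ndp*, the receptor, co-receptor and Norrin ligand of retinal vessel growth, had log2 fold changes of 0.19, -0.10 and 0.03. None of these was called. Of 9 endothelial markers tested, 7 were called lower, against 4.05% of all genes tested. The sums of that list overlapped, at 541.0 to 646.2 CPM in *Mettl3*-CKO and 545.0 to 657.3 CPM in controls. Most of the sum came from *Kdr*, which was not called (means of 557.1 CPM in *Mettl3*-CKO and 548.0 CPM in controls). Of 5 pericyte markers tested, 2 were called higher and 2 lower. *Dkk3*, an inhibitor relative that is abundant in the retina, was at 0.06 (adjusted p = 0.756), and *Dkk1* had 0 to 4 counts per sample and was not tested.

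**Figure D5:**
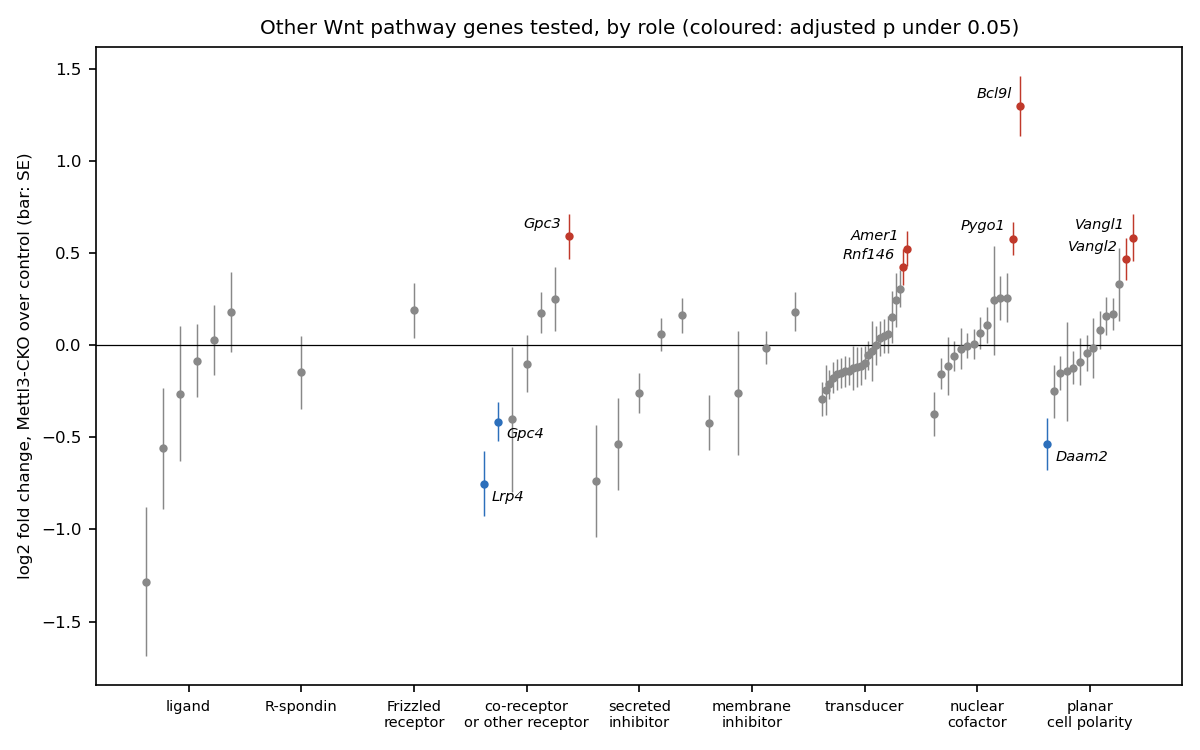
Log2 fold change (*Mettl3*-CKO over control) of the 75 further Wnt pathway genes tested, grouped by role, with bars for the SE. The named and coloured genes were called, 7 higher and 3 lower, and *Bcl9l* (1.30) is the highest of all.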

How the data were processed

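RNA was measured by RNA-seq in 8 retinal samples (total RNA in TRIzol, NEBNext Ultra libraries). According to the study's methods and the submitters' processing notes, HISAT2 was used for mapping (genome GRCm38) and featureCounts for the counting of reads on genes. The values the authors deposited are raw whole-number counts, and the annotation release and the strand setting are not given in the sources used here. All 8 columns were matched to samples by their labels. No pair of samples was a duplicate (lowest chi-square 5.01 per gene).

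The fits used edgeR 4.0.16 (R 4.3.3). Low genes were removed with filterByExpr (17998 of 54532 stayed), libraries were scaled by TMM (factors 0.969 to 1.01) and genes were tested with glmQLFit and glmQLFTest, with adjustment over all genes tested. Standard errors were taken as the absolute log2 fold change over the square root of F. FPKM is TMM-scaled CPM per kilobase of the gene length in the table. On simulated counts with 200 changed genes, the test called 169 of the 189 that passed its filter, none in the wrong direction, and 7 unchanged genes. These counts are not split by the size of the difference. The share called among differences as small as those of most pathway genes was not tested.

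The 44 genes, the further pathway genes (92 listed, 91 matched) and the marker lists were chosen with earlier results of these data known. All 44 are named. Of the further genes, those called were named, with *Ctnnb1*, *Lef1*, *Fzd4*, *Lrp5*, *Ndp*, *Dkk3* and *Dkk1*. Of the markers, *Slc6a9*, *Pax6*, *Zic1*, *Zic2*, *Otx1*, *Aqp1*, *Wfdc1* and *Kdr* were named after their values were seen. Alternatives were DESeq2 1.42.0, limma 3.58.1 (voom with quality weights), other scalings, filters and a stricter threshold, left-out samples and a replicate block. The other data types of the study were not analysed here.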

Additional observations from a re-analysis of the deposited data

Results flagged for a closer look

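Among the 76 groups of 4 samples (38 genes, both groups), 5 held a sample whose distance from the nearest other sample exceeded Dixon's 95% critical value on the log2 CPM scale, and chance alone gives about 1 in 20, or 3.8. Control replicate 1 was low for 4 genes. *Sfrp2*, a ligand-binding inhibitor, was at 2.56 there against 3.84 to 4.02 in the other controls. *Dvl3*, a Dishevelled protein, was at 6.54 against 7.24 to 7.36. *Znrf3*, a feedback inhibitor, was at 4.20 against 4.71 to 4.80, and the receptor *Fzd3* was at 6.96 against 7.09 to 7.11. The fifth was the co-receptor *Lrp6*, which stood at 7.22 in *Mettl3*-CKO replicate 2 and between 6.84 and 6.88 in the rest of its group. None of the 5 genes was called.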

How the results depend on the processing

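Over 17 other fits, the 38 genes gave 645 values. No called gene reversed. Of the 38, 25 never changed sign, and the 45 sign changes of the 13 others were of uncalled values. Scaling by DESeq2 size factors, upper quartile or library totals and a filter of 1 CPM in 4 samples kept *Wnt2b*, *Fzd2* and *Lgr5* called and added none, and 6 other genes (*Fzd5*, *Ror1*, *Apc*, *Dvl1*, *Gsk3b* and *Fzd7*) were called in at least 1 alternative. DESeq2, with a value for all 44 pathway genes, called 5 higher and 2 lower and 6 of the further genes lower. Over all 34458 genes with a value it called 1476 higher and 1019 lower. Limma voom called 5 higher and 3 lower, 12 further genes lower, and 2142 genes higher and 1568 lower over all. Without a filter 4 of the 44 pathway genes were called higher and 1 lower, with 1330 higher and 819 lower over all 34486 genes. At a threshold of 0.01, 0 pathway genes remained in either direction, with 3 further genes higher and 0 lower, and 439 genes higher and 147 lower over all, while 9 pathway genes (23.7%) had an unadjusted p under 0.05 in edgeR, against 24.6% of all genes tested. Leaving out each sample in turn gave 0 to 4 pathway genes higher and 0 to 2 lower, 5 to 8 further genes higher and 0 to 9 lower, and 509 to 1882 genes higher and 185 to 1289 lower over all. Without *Mettl3*-CKO replicate 1 no pathway gene was called, though 9 (23.7%) had an unadjusted p under 0.05, against 18.3% of all genes tested, and the largest counts over all genes were those without control replicate 1. The cause was not tested.

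With the replicate number as a block, 1 pathway gene was called higher and 1 lower, since *Wnt2b* lost its call. Over all genes that fit called 1198 higher and 660 lower. Deviations from the group means correlated at -0.11, 0.22, -0.11 and 0.25 between same-numbered samples. The same-numbered control was the best match for *Mettl3*-CKO replicates 2 and 4 but not for replicates 1 and 3. These few values cannot decide whether the numbers pair the samples. Depth limits the 6 untested genes, which had at most 16 counts in a sample.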
